A study of Mus musculus with 12 samples.

Results

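Ion channel genes were collected from 3 tables of mRNA ratios, 1 each for days 2, 4 and 8 of colony growth. A symbol was taken in when it began with the name of a channel gene family (Kcn for potassium, Cacn for calcium, Scn for sodium, Clc and Ano for chloride, Accn for acid-sensing, Hcn and Cng for cyclic nucleotide-regulated channels, and Grin, Gria, Grik, Glr, Gabr, Chrn and P2rx for receptors with a built-in pore). This gave 44 genes of 2091 listed at any day, with 63 ratios between them. Of the 44, 43 encode part of a channel or a protein that regulates one, as CLCA proteins do. The exception, Glrp1, encodes a glutamine repeat protein and shares only the opening letters of the glycine receptor genes.

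The samples were AKR-2B cells, an established mouse fibroblast line, plated in soft agar, where cells grow into colonies without attaching to a surface. One group received vehicle and the other 25 ng/mL TGFβ, and colonies were recovered after 2, 4 or 8 days. The 6 mRNA libraries are 1 per treatment and day, all from this 1 line, so no difference within a day has a replicate error and no p-value is given. The question was which genes TGFβ changed during growth without anchorage.

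Ion channels are membrane proteins that let sodium, potassium, calcium or chloride ions pass, opening on a change of voltage, the binding of a transmitter, or an ion or nucleotide inside the cell. They are best known from nerve and muscle. Fibroblasts carry some of them too, potassium channels above all, and these set the resting membrane potential and the entry of calcium.

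The authors' deposited tables each list 998 genes, 499 above 1 and 499 below, and the channel genes were chosen by being listed there, that is, by the very ratios given below. Their sides and sizes are therefore a description. The column headers do not say which treatment is the numerator. The ratios are read here as TGFβ over vehicle, since all 7 listed genes of 10 known TGFβ targets, a list drawn up with earlier results known, were above 1 at each day that listed them. In the authors' deposited tables Pmepa1, whose product restrains TGFβ signalling, had ratios of 5.41 (day 2), 22.1 (day 4) and 14.2 (day 8). Acta2, the smooth muscle actin gene that TGFβ is known to raise in fibroblasts, was not on that list and goes against this reading, since the authors' deposited tables give it ratios of 0.0560 (day 2), 0.0791 (day 4) and 0.0595 (day 8). The numerator is therefore not settled, and if the ratio runs the other way, every direction below inverts.

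Each of the 63 ratios equals 1 odd whole number divided by another, as does (reads + 0.5) in the TGFβ library over (reads + 0.5) in the vehicle library with no scaling for library size. The smallest pair of odd numbers therefore gives the fewest reads that can lie behind a ratio. These are called implied reads here. The true reads can be a larger pair with the same ratio. Library totals were not used here, so a depth difference within a day remains in every ratio. Each library pools whole colonies, so fewer cells that express a gene and less RNA per cell cannot be told apart.

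**Figure D1:**
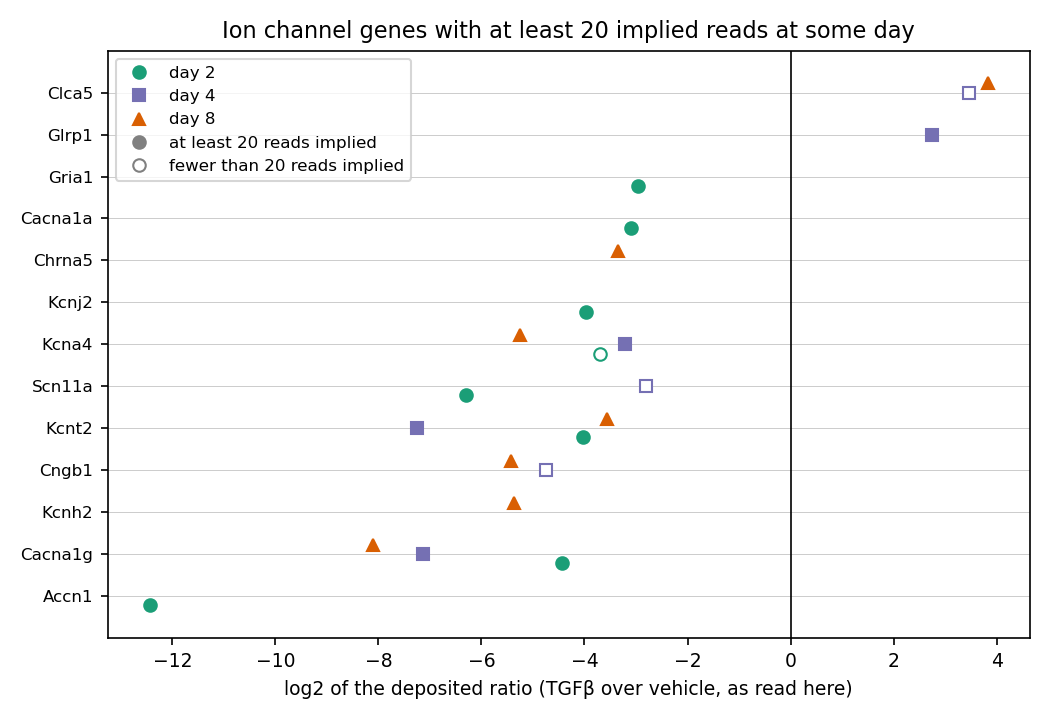
Each row is 1 of the 13 genes with at least 20 implied reads at some day, and each point 1 listed ratio, on a log2 axis, with circles for day 2, squares for day 4 and triangles for day 8. Filled points imply at least 20 reads in 1 library. Of the 18 filled points, 16 lie below 1, where 616 of all 1111 listed ratios with at least 20 implied reads lie below 1. Glrp1, which is no channel gene, is among the filled points above 1. Accn1 at day 2 lies farthest from 1, at a log2 ratio of -12.44.

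The day 2 table listed 26 channel genes, of which 11 lay above 1 and 15 below. The day 4 table listed 21, with 6 above and 15 below, and that of day 8 listed 16, with 6 above and 10 below. The background is 50.0% on each side at every day, because the authors' deposited tables end at 499 genes each way. Over the 3 days 17 genes were listed above 1 only, 25 below 1 only, and 2 on both sides. Of the 252 protein-coding genes in RefSeq that match the family names, counting Asic for the older Accn, 44 (17.5%) were listed, against 1785 (8.15%) of all 21900. No test was made of that difference, and a gene with few reads reaches a large ratio more easily than one with many.

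The reads behind the 2 sides were unequal. Among channel ratios above 1, 2 of 23 implied at least 20 reads in 1 library, against 33.1% of all listed ratios above 1. These 2 were Clca5, a CLCA gene, at day 8 and Glrp1, which is no channel gene, at day 4. Among channel ratios below 1 it was 16 of 40, against 41.1%. Ratios of 0 reads against 3 or fewer made up 12 of 23 above 1 and 5 of 40 below 1, where the shares of all listed ratios were 44.4% and 7.35%. For these no fold against a limit is given, because the implied reads of both libraries lie at or under 3, the limit that a count of 0 allows. In all, 36 of the 63 ratios had a 95% counting interval (exact Clopper-Pearson on the implied reads) that excluded 1, near the background of 57.5%. With 0 reads in 1 library that took at least 6 in the other. Where a fold is given against 0 implied reads, it comes with 2 lower limits. The first sets 0 to 3 reads and takes the other count as exact, and the second is the nearer end of the counting interval, which was the smaller for every gene given here. Both the intervals and the 3-read limit leave out every error but counting, and reads that carry no molecular identifier can be copies of 1 molecule.

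**Figure D2:**
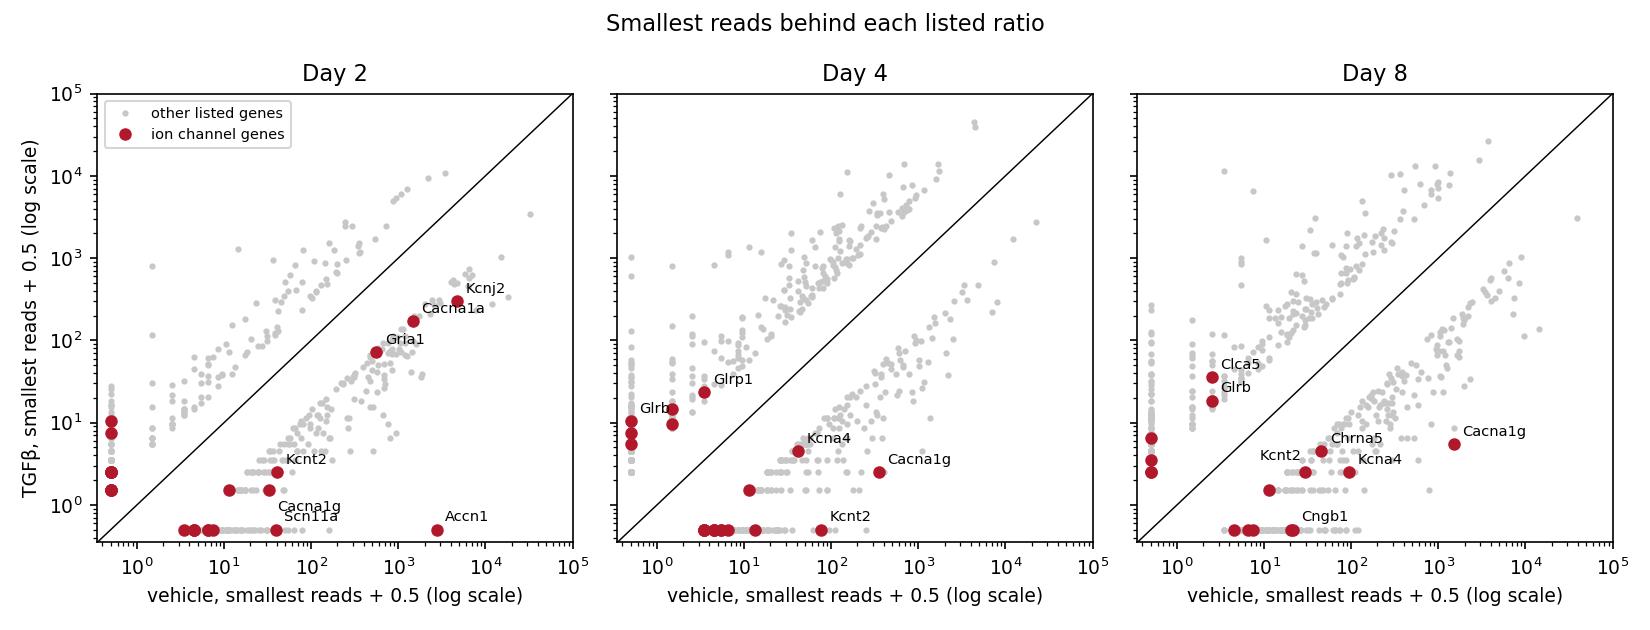
Each panel is 1 day and each point 1 listed gene, with implied reads plus 0.5 in the vehicle library on the horizontal axis and in the TGFβ library on the vertical axis, both logarithmic. Red points are the channel genes, grey points the other listed genes, and the line marks equal reads. Channel genes above the line lie close to the left edge, with at most 35 reads (Clca5 at day 8), while below the line they reach 4745 vehicle reads (Kcnj2 at day 2).

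Of the 44 genes, 16 (36.4%) were listed at 2 or more days, against 31.9% of all listed genes. Of these 10 were below 1 throughout (22.7% of the 44, background 15.6%), 4 above 1 throughout (9.09%, background 14.0%) and 2 on both sides (4.55%, background 2.30%). Listing at all 3 days was found for 3 genes, Cacna1g, Kcnt2 and Kcna4, each below 1 every time (6.82%, background 5.98%). No channel gene was above 1 at all 3 days, where the background was 5.02%. The days are separate cultures compared 1 library against 1, not replicates.

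The stretches just before the start sites of these genes show the promoter DNA of some of the channels the results turn on. RefSeq (GRCm38.p6) promoters were found for 29 of the 44 genes, with several start sites for some and Clca1 left out because its name is ambiguous. Cacna1g, Cacna1a and Gria1 had no entry. Shown are the 250 bases before the start for Kcnt2 and Kcna4, listed below 1 at all 3 days, Kcnj2, the channel gene with the most implied reads, and Glrb, listed above 1 at 2 days. Capitals mark CAGAC, the core letters bound by SMAD proteins, or CAGGTG, an E-box bound by SNAIL and ZEB repressors, on either strand (GTCTG and CACCTG when read on the opposite strand).
Kcnt2: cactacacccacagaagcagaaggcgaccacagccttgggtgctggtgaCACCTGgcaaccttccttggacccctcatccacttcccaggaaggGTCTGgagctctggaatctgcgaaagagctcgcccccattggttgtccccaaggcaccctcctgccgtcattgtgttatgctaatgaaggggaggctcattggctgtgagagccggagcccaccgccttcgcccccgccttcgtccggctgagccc
Kcna4: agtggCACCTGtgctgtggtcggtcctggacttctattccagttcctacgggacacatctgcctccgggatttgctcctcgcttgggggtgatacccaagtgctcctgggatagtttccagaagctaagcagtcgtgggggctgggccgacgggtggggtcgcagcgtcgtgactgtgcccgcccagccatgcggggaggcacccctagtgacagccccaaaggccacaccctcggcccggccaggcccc
Kcnj2: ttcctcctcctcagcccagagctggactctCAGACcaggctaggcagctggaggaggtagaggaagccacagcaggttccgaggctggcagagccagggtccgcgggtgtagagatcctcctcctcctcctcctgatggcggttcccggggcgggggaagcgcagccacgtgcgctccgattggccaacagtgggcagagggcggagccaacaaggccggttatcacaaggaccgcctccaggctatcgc
Glrb: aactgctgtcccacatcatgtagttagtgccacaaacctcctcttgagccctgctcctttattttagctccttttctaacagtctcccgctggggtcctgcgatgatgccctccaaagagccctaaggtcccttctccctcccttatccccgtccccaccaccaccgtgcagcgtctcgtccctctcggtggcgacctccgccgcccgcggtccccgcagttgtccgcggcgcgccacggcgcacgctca
The sequences lie at chr1:140245468-140245717 (plus strand), chr2:107290339-107290588 (plus), chr11:111065914-111066163 (plus) and chr3:80913661-80913910 (minus), and each is written 5′ to 3′ on the strand of its gene. The start site used for Kcnt2 lies inside the locus given for it below, so that 61 of its 250 bases fall within that locus, against 0 for the other 3. The end of each promoter entry, past the bases shown, was looked for in GENCODE transcripts of the gene. It was found for Kcnj2 and Glrb but not for Kcnt2 and Kcna4, whose start sites thus lack that check.

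Kcnt2 held both motifs, Kcna4 the E-box, Kcnj2 the SMAD core and Glrb neither. The sequences shown do not stand for their side of 1. Genes with both motifs among their promoters were Cacna1i, Kcnc2 and Kcnip1, above 1, and Chrna5, Clcn1, Kcnk13, Kcnk4 and Kcnt2, below 1. The shares by side were not compared. CAGAC occurred in 15 of the 37 promoters of the listed genes (40.5%) and in 42.2% of all 32851 promoters of the same length. CAGGTG occurred in 12 of 37 (32.4%), against 17.2% of all. The palindrome GTCTAGAC was in 0 of 37, against 0.167% of all, and the AP-1 motif TGANTCA in 1 of 37 (Glrp1), against 6.75%. The motifs do not overlap one another in the sequences shown. A match describes the letters and does not show binding.

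Calcium channel pore genes were mostly below 1. Of 10 such genes in RefSeq 4 were listed, 3 below 1 only and 1 above 1 only. Of their 7 ratios 6 lay below 1, with Cacna1g counted at each of 3 days. For this class and those that follow, the listed share over all protein-coding genes is 8.15%, and the background of each side is 50.0%. Cacna1g (11:94408391-94474400), the pore of a T-type calcium channel that opens at low voltage, had ratios of 0.0462 at day 2, 0.00715 at day 4 and 0.00363 at day 8 in the authors' deposited tables. Its implied reads were 32 with vehicle and 1 with TGFβ at day 2, 349 and 2 at day 4, then 1514 and 5 at day 8. The vehicle library was the high one at every day, while TGFβ libraries held a handful of reads.

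At day 8 Cacna1g stood second from the bottom of the whole table, after Ifi27l2a. The counting interval of its ratio was 0.000768 to 0.187 at day 2, 0.000691 to 0.0209 at day 4 and 0.00107 to 0.00772 at day 8. These overlap, and the difference between the days was not tested, so no order of the 3 days is given.

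Cacna1a (8:84338631-84640251), the P/Q-type channel of nerve terminals, was listed at day 2 alone. It had 171 implied reads with TGFβ and 1460 with vehicle, a ratio of 0.117 (0.0994 to 0.137) in the authors' deposited table. Cacna1f, an L-type channel of the retina, had 0 reads against 4 at day 2 and 0 against 6 at day 4. On the other side Cacna1i, also a T-type pore, had 9 reads with TGFβ and 1 with vehicle at day 4. Cacna2d3, an auxiliary subunit, had 2 and 0 at day 2. The 2 listed T-type genes thus lay on opposite sides of 1, Cacna1i with far fewer reads.

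Potassium channels were the most numerous group, with 16 genes of 93 in RefSeq, 9 above 1 only and 7 below 1 only. They had 22 ratios, 10 above 1 and 12 below. Kcnt2 (1:140245657-140614045), a sodium-activated potassium channel, was below 1 at all 3 days. Implied reads were 40 with vehicle and 2 with TGFβ at day 2, 76 and 0 at day 4, then 29 and 2 at day 8. In the authors' deposited tables its ratios were 0.0617 (interval 0.00585 to 0.193), 0.00654 and 0.0847 (0.00797 to 0.273). At day 4, with 0 set to 3 reads, it was at least 25.3-fold lower with TGFβ, and the counting interval began at 20.1-fold.

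Kcna4 (2:107290589-107326804), a voltage-gated channel of the fast inactivating A-type current, was lower in the TGFβ library of each day as well. Vehicle and TGFβ libraries held 6 and 0 reads at day 2, 41 and 4 at day 4, then 95 and 2 at day 8. The pairs of days 4 and 8 give ratios of 0.108 (0.0254 to 0.269) and 0.0262 (0.00251 to 0.0782) in the authors' deposited tables. Its intervals overlap between the days, as do those of Kcnt2.

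**Figure D3:**
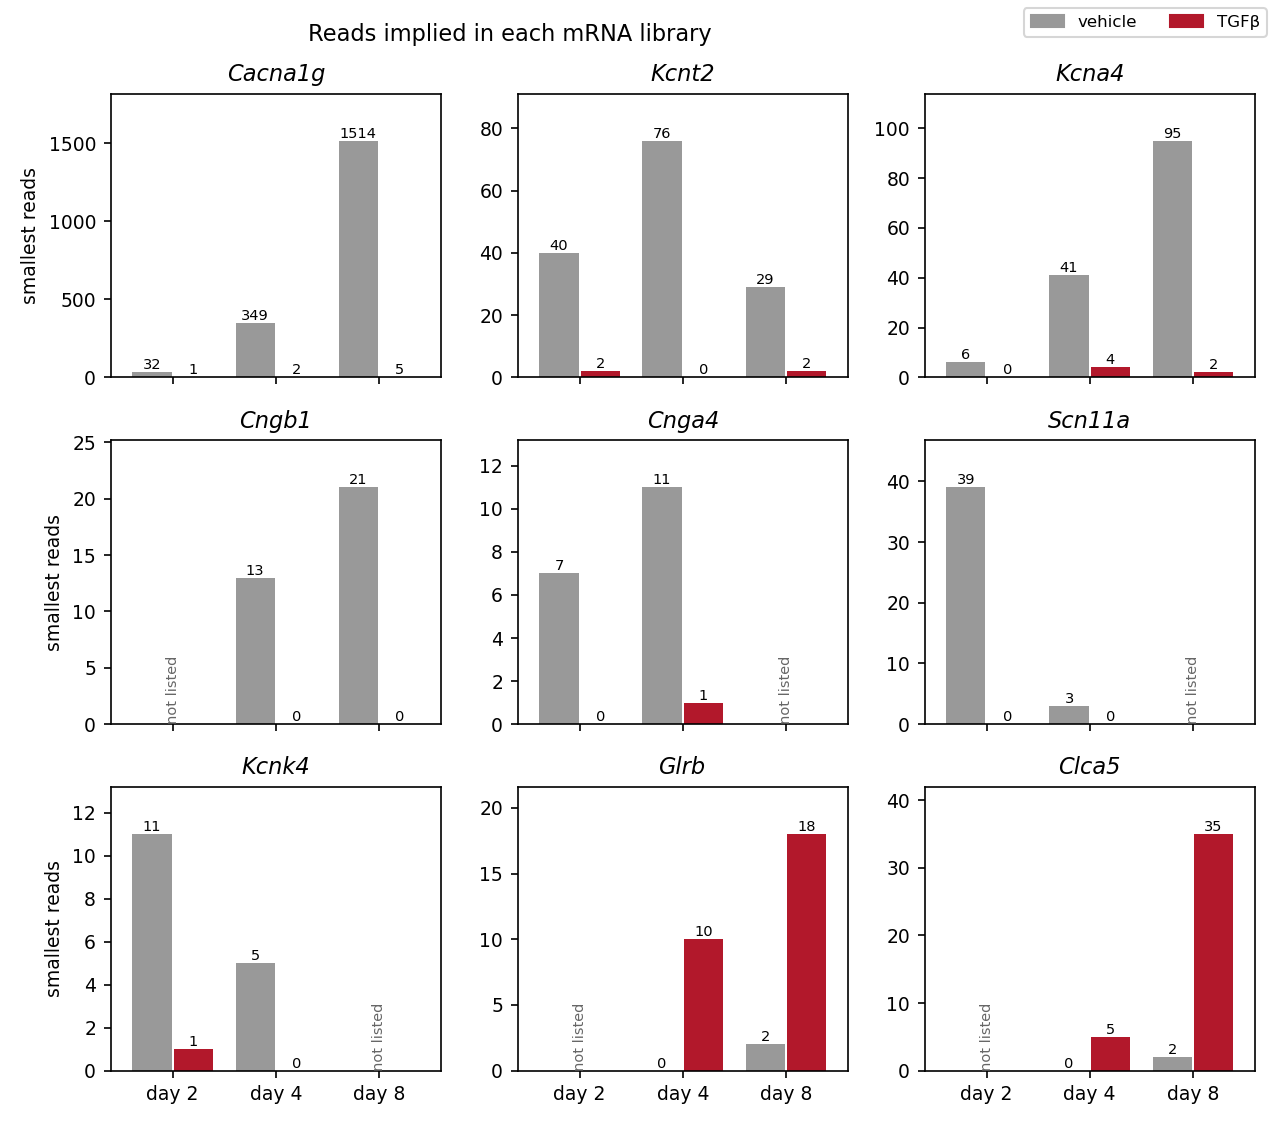
Bars show implied reads (linear axis, starting at 0) in the vehicle (grey) and TGFβ (red) library of each day for 9 genes listed at 2 or more days, each panel with its own scale. Cacna1g, Kcnt2, Kcna4, Cngb1, Cnga4, Scn11a and Kcnk4 have more reads with vehicle, and Glrb and Clca5 more with TGFβ. "Not listed" marks a day whose table lacks the gene.

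Kcnj2 (11:111066164-111076825), an inward rectifier that holds the resting potential near that of potassium, carried the most implied reads of any channel ratio. At day 2 it had 4745 reads with vehicle and 300 with TGFβ, a ratio of 0.0633 (0.0561 to 0.0711) in the authors' deposited table. It was not listed at days 4 and 8. The tables stop at ratios of 0.143 on the lower side at every day, and on the upper side at 3 for day 2 and 5 for days 4 and 8, so absence from a table does not show equal levels.

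Kcnh2 (5:24319589-24351684), the repolarising channel of the heart known as ERG, had 20 vehicle reads and 0 with TGFβ at day 8, at least 6.67-fold lower with 0 set to 3 reads (counting interval from 4.94-fold). Kcnk4, a two-pore leak channel opened by stretch, had 11 vehicle reads against 1 at day 2 and 5 against 0 at day 4. Kcnk13, another leak channel, had 4 against 0 at day 4, and Kcnma1, the large-conductance calcium-activated channel, 4 against 0 at day 2. None of these 4 implied more than 20 reads in any library.

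The potassium channel genes above 1 were mostly voltage-gated and all had few reads. Kcnc2, a fast channel of neurons that fire at high rates, had 6 reads with TGFβ and 0 with vehicle at day 8, at least 2.00-fold higher with 0 set to 3 reads (counting interval from 1.18-fold). Kcnq3, a subunit of the M-current that limits repetitive firing, had 7 and 0 at day 2, at least 2.33-fold higher (interval from 1.44-fold). Kcnk5, an alkali-activated leak channel, had 14 and 1 at day 4, a ratio of 9.67 (2.13 to 592) in the authors' deposited table.

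Another 5 potassium channel genes above 1 had 1 or 2 TGFβ reads and 0 vehicle reads: Kcna1, Kcne4 and Kcnq5 (1 read each) and Kcnip1 (2) at day 2, and Kcnq1 (2) at day 8. Kcne4 and Kcnip1 encode auxiliary subunits. The authors' deposited table for day 2 reaches down to 3 on the upper side, the value of 1 read against 0, which 186 genes share. Kcna1, Kcne4, Kcnq5 and Scn3a sit at that limit.

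Of 10 sodium channel pore genes in RefSeq 5 were listed, 3 below 1 only and 2 on both sides, with 7 of 9 ratios below 1. Among the 9 ratios only that of Scn11a at day 2 had a counting interval that excluded 1. Only Scn11a, a channel of pain-sensing neurons, had more than 5 implied reads in any library, with 39 vehicle reads and 0 with TGFβ at day 2, at least 13.0-fold lower with 0 set to 3 reads (counting interval from 10.1-fold). At day 4 it had 3 and 0. Scn9a, another sensory neuron channel, had 3 vehicle reads against 0 at day 2. Scn3a and Scn10a changed sides between days. Scn3a had 1 TGFβ read against 0 at day 2 and 5 vehicle reads against 0 at day 4. Scn10a had 3 vehicle reads against 0 at day 4 and 3 TGFβ reads against 0 at day 8. Every one of the 4 intervals of Scn3a and Scn10a included 1.

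Accn1 (current symbol Asic2, 11:80880163-81968396), a proton-gated sodium channel subunit, had the lowest ratio of the day 2 table, 0.000180 in the authors' deposited table. It implies 2784 vehicle reads and 0 with TGFβ, at least 928-fold lower with 0 set to 3 reads (counting interval from 754-fold). The next lowest gene, Agt, implied 158 and 0. Accn1 was listed neither at day 4 nor at day 8. In RefSeq 9 other genes overlap its long locus, and of these 5530401A14Rik was listed at day 2, on the other side, with 2 TGFβ reads and 0 vehicle reads. Accn1 thus rests on 1 vehicle library, with no other day beside it.

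**Figure D4:**
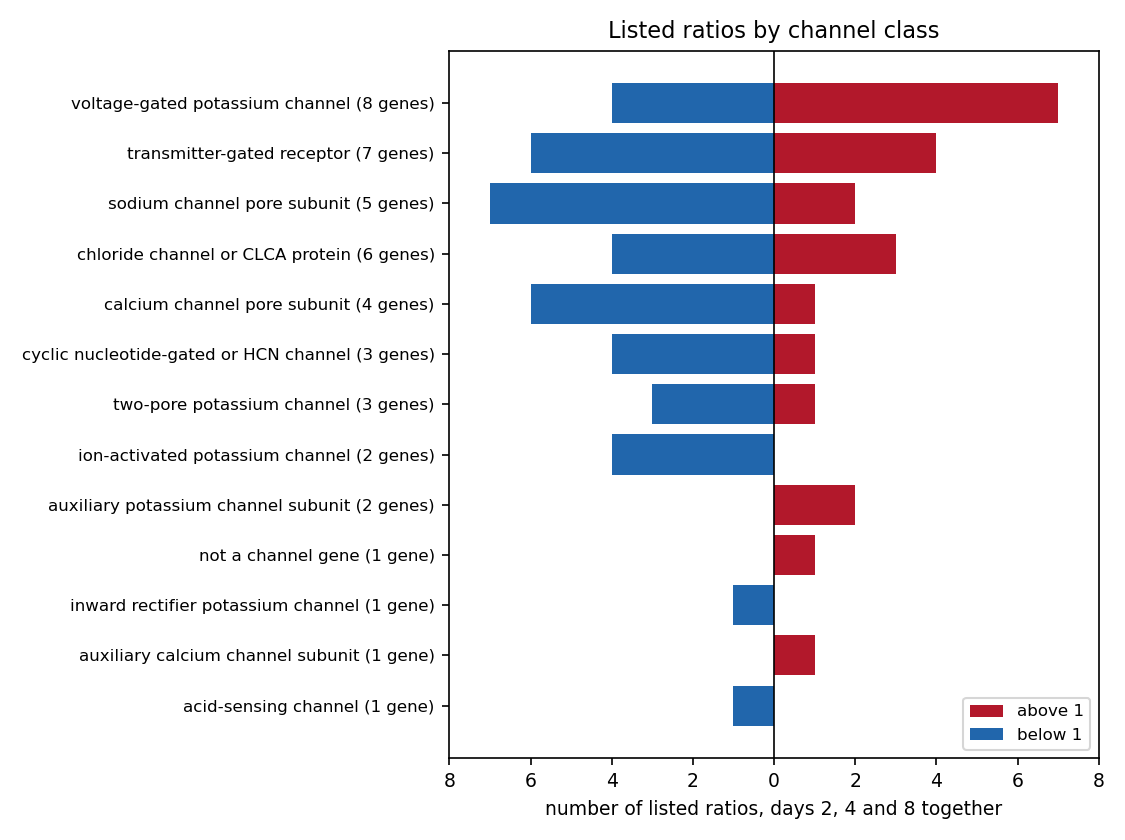
Bars count the listed ratios of each channel class, all 3 days together, to the right for ratios above 1 (red) and to the left for ratios below 1 (blue), with the number of genes in brackets. A gene listed at several days counts once per day. Calcium and sodium channel pore subunits lie mostly to the left (6 of 7 and 7 of 9 ratios), and voltage-gated potassium channels have 7 ratios above and 4 below. By gene, 3 of 4 calcium pore genes were below 1 only. Of 5 sodium pore genes 3 were below 1 only and 2 on both sides. Of 8 voltage-gated potassium genes 6 were above 1 only and 2 below 1 only.

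Transmitter-gated receptors numbered 7 of 63 in RefSeq, 2 above 1 only and 5 below 1 only, with 4 ratios above 1 and 6 below. Gria1 (11:57011571-57330244), a subunit of the AMPA glutamate receptor, was the one with many reads, 561 with vehicle and 71 with TGFβ at day 2. Its ratio was 0.127 (0.0974 to 0.162) in the authors' deposited table, close to the listing limit, and it was listed at no other day. Glrb (3:80843598-80913660), the glycine receptor subunit that anchors the receptor to gephyrin, was on the higher side. It had 10 TGFβ reads against 0 at day 4 and 18 against 2 at day 8, the latter a ratio of 7.40 (2.15 to 80.0) in the authors' deposited table.

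The 3 listed nicotinic acetylcholine receptor genes were all below 1, and all at day 8. Chrna5 (9:54980827-55011420) had 45 vehicle reads and 4 with TGFβ, a ratio of 0.0989 (0.0232 to 0.244) in the authors' deposited table. Its neighbour Chrna3 (9:55010117-55026562), which overlaps it, had 7 and 0, and reads in the overlap can belong to either. Chrnd, a subunit of the muscle receptor, had 6 and 0. The ATP-gated P2rx1 had 4 vehicle reads and 0 with TGFβ at both days 4 and 8.

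Of 10 cyclic nucleotide-gated or HCN channel genes in RefSeq 3 were listed, 1 above 1 only and 2 below 1 only. The 2 listed cyclic nucleotide-gated genes, of a family best known from sensory cells, were below 1 at 2 days each. Cngb1 had 13 vehicle reads and 0 with TGFβ at day 4 and 21 and 0 at day 8, at least 4.33-fold and 7-fold lower with 0 set to 3 reads (counting intervals from 3.05-fold and 5.21-fold). Cnga4 had 7 vehicle reads against 0 at day 2 and 11 against 1 at day 4. The related pacemaker gene Hcn3 had 2 TGFβ reads against 0 at day 2.

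Among 26 genes of chloride channels or CLCA proteins in RefSeq 6 were listed, 2 above 1 and 4 below. Of the 6, Clca1, Clca5 and Clca6 are CLCA genes. Clca5 (current symbol Clca2), of a family that regulates calcium-activated chloride current, had 5 TGFβ reads against 0 at day 4 and 35 against 2 at day 8, a ratio of 14.2 (4.50 to 150) in the authors' deposited table. Its relatives lay below 1, with Clca6 at 4 vehicle reads against 0 and Clca1 at 3 against 0, both at day 4. The tables use older names, and Clca1 has been the name of 2 different genes. Clcn1, the muscle chloride channel, had 11 vehicle reads and 1 with TGFβ at day 8. Fam131b, which overlaps it in RefSeq, was also below 1 at day 8, with 55 and 6. Ano4, an anoctamin, had 2 TGFβ reads against 0 at day 2. Glrp1, the gene that is no channel, had 23 TGFβ reads against 3 at day 4.

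Of 105 channel genes and channel partners under other names, 17 (16.2%) were listed, against the 8.15% of all protein-coding genes. Above 1 were 3, 4 and 3 of them at days 2, 4 and 8, and below 1 were 4, 7 and 6. The TRP channel genes end at their digit and so fall outside the family pattern as written. Among them Trpm6, a magnesium channel, had 134 vehicle reads and 17 with TGFβ at day 2, and 152 and 20 at day 4. Trpm5, of taste cells, had 18 and 0 at day 4 and 12 and 0 at day 8, and Trpc5 3 TGFβ reads against 0 at day 4. Fxyd1, a regulator of the sodium pump, was below 1 at all 3 days, with 28 vehicle reads against 2, 195 against 10 and 343 against 39.

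Because many of these channels are typical of nerve and muscle, markers of those cells were counted in the same tables. Of all protein-coding genes in RefSeq, 8.15% were listed at any day. Of 14 neuron markers 1 was listed, Tubb3, with 46 TGFβ reads and 8 with vehicle at day 4, and of 6 glia markers 0. Of 17 striated muscle markers 4 were listed, of which Tnnt2 alone implied over 6 reads, above 1 at all 3 days. Of 7 smooth muscle markers 3 were listed, all below 1: Acta2 and Myl9 at all 3 days, with 1597 vehicle reads against 89 and 143 against 4 at day 2, and Actg2 at days 4 and 8. Endothelial markers were listed above 1 for 4 of 5 genes, but only Cdh5 had more than a few reads, with 15, 31 and 32 with TGFβ and 0 with vehicle. Kdr, Pecam1 and Tek had 5 or fewer TGFβ reads against 0, and each of their counting intervals included 1. Epithelial markers were above 1 for 2 of 7, and 1 of 8 leukocyte markers was below 1. Of the epithelial markers, Krt8 had 16 TGFβ reads against 0 at day 2 and 21 against 2 at day 4. Its counting intervals excluded 1 at both days. Krt14 had 3 TGFβ reads against 0 at day 2, with an interval that included 1. The part of other cell types in the channel ratios was not tested. None of 11 fibroblast markers was listed, and with no level per library the cell label could not be checked.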

How the data were processed

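The mRNA of AKR-2B colonies in soft agar was measured in 6 libraries, 1 for each of 2 treatments at 3 days. The authors deposited a table per day with a ratio (fold change) per gene and no value per library. The submitters' processing notes name edgeR 3.9 and build mm10 without a role; aligner and counter: not given in the sources used here. Depth per library is unknown. In 2988 of 2994 ratios a pair of odd whole numbers with a smaller member up to 9999 was found that rounds to the deposited value. The other 6, none a channel gene, were counted as having many reads. The search was tested on simulated data.

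Implied reads, exact intervals and counts were computed with Python 3.11.15, SciPy 1.17.1 and pandas 2.3.3. Symbols matched RefSeq (GRCm38.p6, the build mm10 stands for) as given for 41 genes and as synonyms for 3. No p-value was computed. By rule all 44 genes were to be named, with values for those listed at 2 or more days or with a larger whole number of at least 41 (20 reads); some are counted but not reported here by name. The members, lists and motifs were chosen with earlier results of these data known. Alternatives changed the minimum of reads, the symbols, the fold and the pseudocount. The miRNA tables were not used, because no listed channel gene holds a RefSeq miRNA hairpin.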

Additional observations from a re-analysis of the deposited data

Results flagged for a closer look

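Scn3a and Scn10a, both sodium channel pore genes, were listed on opposite sides of 1 at different days. In the authors' deposited tables Scn3a stood at 3 at day 2 and 0.0909 at day 4, and Scn10a at 0.143 at day 4 and 7 at day 8. The difference between the days was not tested, and no library of either gene implied more than 5 reads. Of all 2091 listed genes, 48 (2.30%) were listed on both sides, against 2 of the 44 channel genes (4.55%).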

How the results depend on the processing

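A minimum of 20 implied reads (a larger whole number of at least 41) left 0 of 11, 1 of 6 and 1 of 6 genes above 1 at days 2, 4 and 8. The 1 at day 4 was Glrp1, which is no channel gene. Below 1 that minimum left 7 of 15, 3 of 15 and 6 of 10 genes. Of all listed genes it left 17.8%, 42.5% and 38.9% above 1 at the 3 days. Below 1 it left 41.5%, 36.3% and 45.7% of them. Under the same minimum, channel genes listed at 2 or more days numbered 0 above and 3 below. At 10-fold or more either way there were 2, 3 and 2 above and 8, 6 and 8 below. The same count over all listed genes was not made. The lists begin at 3 or 5 above 1 but at 7-fold below 1. The counts of the sides at 10-fold therefore cannot be set against each other. Asking for all 3 days in place of 2 left 0 above and 3 below. Other settings used current RefSeq symbols (Accn1 left out as Asic2, Gm15070 taken in as Trpc5os), left out Glrp1, or took in the 3 TRP genes. Each count, taken without a minimum of reads, then stayed within 1.5 times the reported one. A pseudocount adds the same amount to both libraries, so changing it cannot move a ratio across 1. With a pseudocount of 2 in place of 0.5, all 63 ratios lay within their counting intervals, 4 of them under 2-fold. With none, neither the side nor the place within the interval could change for the 19 ratios with reads in both libraries. The ratios of miRNAs inside channel genes were not run, since no listed gene holds one. No paired analysis was possible because no test was made: each ratio already sets TGFβ against vehicle of the same day, and the genes were chosen by those ratios. Few reads limit most of the list: 31 of the 44 genes never implied 20 reads in any library.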
